A study of Homo sapiens with 8 samples.

Results

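The genes examined were EGFR, ERBB2, ERBB3 and MET, which encode receptor tyrosine kinases, and AREG, EREG, HBEGF, TGFA, BTC and NRG1, which encode ligands of the ERBB receptors. They were chosen by name as the rows of the deposited count table with these symbols, 10 of 25369 named genes, and all 10 were among the 17714 genes with enough counts to be tested. Poly(A) RNA of the human high-grade serous ovarian cancer line UWB1.289 was sequenced in 8 libraries, which formed 4 groups of 2. The BRCA1-null groups were the UWB1.289 line itself, which carries a BRCA1 mutation and no functional BRCA1, and the BRCA1+ groups were UWB1.289 cells into which BRCA1 had been brought by transduction. Each line was exposed for 24 h to DMSO, the vehicle used as control, or to 0.5 uM entinostat, which inhibits HDAC1 and HDAC3, histone deacetylases of class I. All groups thus shared the UWB1.289 background. The design asks what differs between cells with and without functional BRCA1, what entinostat alters in either, and whether its effects differ.

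BRCA1 status was represented by 1 line each, so an effect of BRCA1 and any other difference that arose between the lines cannot be told apart. The labels number the 2 libraries of a group without saying that they came from separate cultures, and p-values therefore measure only the spread between these libraries, which may be technical. All cells grew in a medium with serum and the MEGM SingleQuots supplement, a mammary epithelial supplement that contains EGF, so EGFR was exposed to added ligand in every group.

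The ERBB receptors are bound by a family of ligands made as membrane precursors and released by metalloproteases such as ADAM17. AREG, TGFA and EGF bind EGFR, HBEGF, BTC and EREG bind both EGFR and ERBB4, and NRG1 binds ERBB3 and ERBB4, whereas ERBB2 has no known ligand and acts as the preferred partner of the other receptors. MET is the receptor of HGF, which is usually made by stromal cells, and it can work together with EGFR and ERBB3. In epithelial ovarian cancer these receptors signal through the RAS-ERK and PI3K-AKT pathways to growth and survival.

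Total counts ranged from 31900158 to 53549893 per library. A gene without counts could still have been present at up to 3 counts, or 0.0552 to 0.0946 CPM (counts scaled to an effective library size of 1e6), and these floors cover counting error only. BRCA1 itself was lower in BRCA1-null than in BRCA1+ cells in DMSO, by a log2 difference of -2.14 ± 0.0862 (SE), and CDKN1A, a cell cycle inhibitor that histone deacetylase inhibitors induce, rose with entinostat (log2 1.70 ± 0.208 in the BRCA1+ and 1.22 ± 0.204 in the BRCA1-null line, the latter not called without the second BRCA1-null DMSO library, adjusted p = 0.064). The 11 markers of Mullerian and carcinoma epithelium were all detected and summed to 14110 to 18540 CPM, with PAX8 at 347 to 379 CPM (group means), although WT1 had at most 20 counts in any library. Markers of other cells were low: 6 fibroblast and smooth muscle markers summed to 14.1 to 60.6 CPM with DCN and LUM at 0 counts in all 8 libraries, 5 immune markers summed to 14.5 to 36.5 CPM with MS4A1 at 0, and 4 endothelial markers summed to 5.43 to 12.8 CPM.

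In DMSO, BRCA1-null cells had more AREG, EREG, TGFA and MET transcript and less NRG1, ERBB2 and ERBB3 transcript than BRCA1+ cells, although the ERBB2 call was lost under 6 and the ERBB3 call under 12 of 15 alternative settings. AREG differed most, at 2.10 ± 0.419 against 0.324 ± 0.0343 CPM (mean ± SD, n = 2 per group), and the most abundant of the genes, MET, stood at 726 ± 73.9 against 394 ± 20.2 CPM. NRG1 was lower, at 36.3 ± 2.01 against 71.9 ± 4.33 CPM. Entinostat raised HBEGF in both lines. The test of the difference between the entinostat responses of the lines called 0 of the 10 genes, and 0.00% of all tested genes. As RNA was taken from whole cultures, fewer cells with a transcript and less transcript per cell cannot be told apart.

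Each gene was tested with the quasi-likelihood test of edgeR, with p adjusted by Benjamini-Hochberg over all 17714 genes, and is called here when the adjusted p is under 0.05. By this test, 4 of the 10 genes were higher and 3 lower in BRCA1-null cells in DMSO. Over all tested genes 21.1% were higher and 21.0% lower by the same test. In entinostat, 5 of the 10 were higher and 3 lower in BRCA1-null cells, where 20.5% and 18.9% of all tested genes were called. The median log2 fold change of the 10 genes between the lines was 0.21 in DMSO and 0.51 in entinostat, beside 0.01 and 0.02 over all tested genes. The 10 genes had been chosen with earlier results of these data known. Their counts and medians beside those of all genes are therefore a description only. Both comparisons of the lines also rest on the libraries that enter the entinostat comparisons, so the 4 sets of values are not independent of each other.

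**Figure D1:**
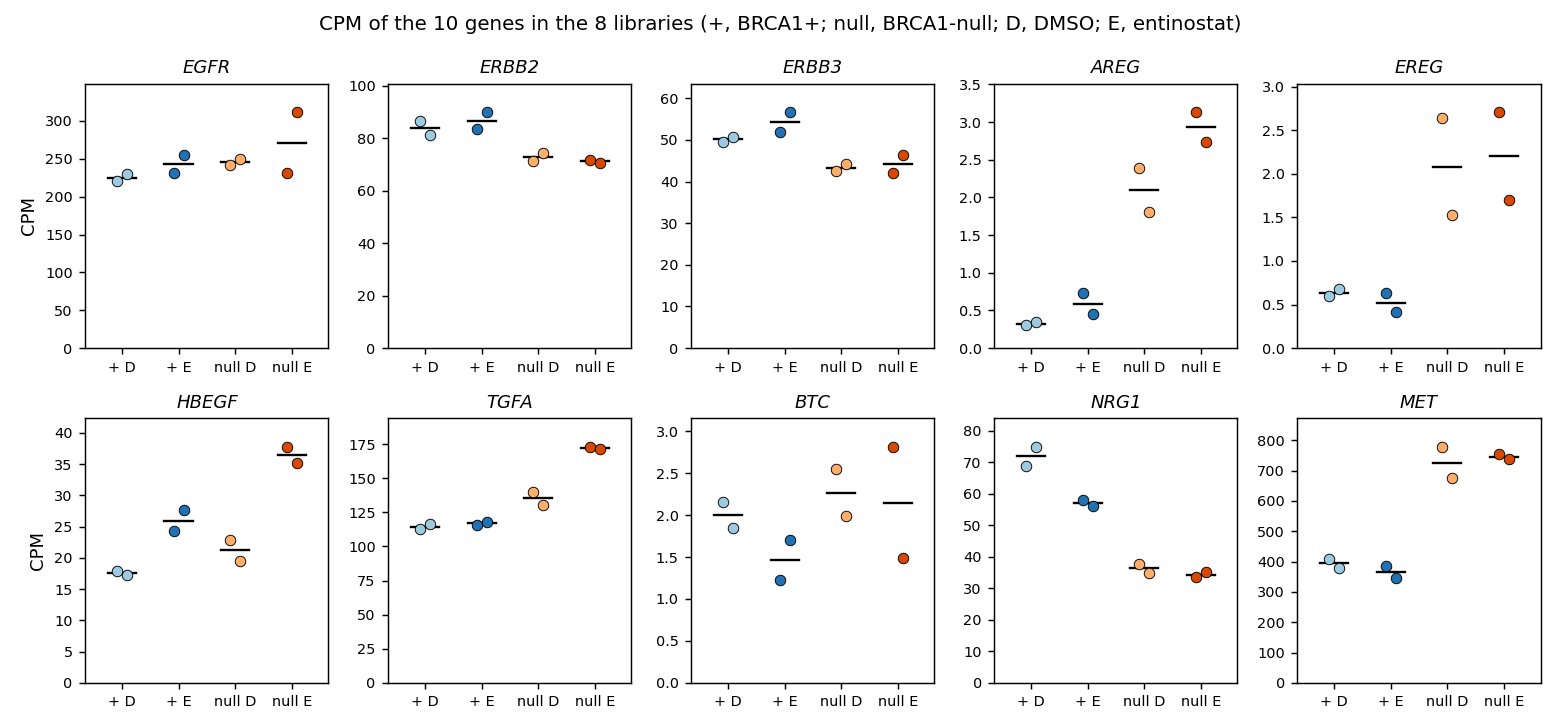
CPM of each of the 10 genes (y axis, linear and starting at 0) in the 8 libraries, with BRCA1+ and BRCA1-null cells in DMSO (D) and entinostat (E) on the x axis; points are libraries and lines the mean of 2. MET lies between 344.8 and 408.1 CPM in the 4 BRCA1+ libraries and between 674 and 778.5 CPM in the 4 BRCA1-null libraries, whereas the NRG1 libraries are ordered the other way.

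Levels can be compared between genes only per length, as RPKM (CPM per kilobase of the exon length in the table). On this scale MET was the most abundant of the 10 genes in every group, from 54.7 ± 4.35 RPKM in BRCA1+ entinostat to 112 ± 1.54 RPKM in BRCA1-null entinostat cells (SD, n = 2). EGFR followed with 34.3 to 41.3 RPKM (group means), then TGFA with 26.6 to 39.9 RPKM, although the libraries of EGFR and TGFA overlapped in BRCA1-null entinostat cells. ERBB2 had 12.9 to 15.8 RPKM and ERBB3 7.00 to 8.78 RPKM. The place of the ligands HBEGF and NRG1 changed with the group: in BRCA1+ DMSO cells NRG1 (9.23 ± 0.555 RPKM) stood above HBEGF (7.44 ± 0.216 RPKM), and in BRCA1-null entinostat cells HBEGF (15.5 ± 0.779 RPKM) stood above ERBB2 and NRG1 (4.41 ± 0.147 RPKM). BTC, AREG and EREG were at the low end in all groups. There, the libraries of EREG and AREG overlapped in BRCA1+ DMSO and those of BTC and AREG in BRCA1-null entinostat cells, and no other pair of neighbours in the order overlapped within a group.

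**Figure D2:**
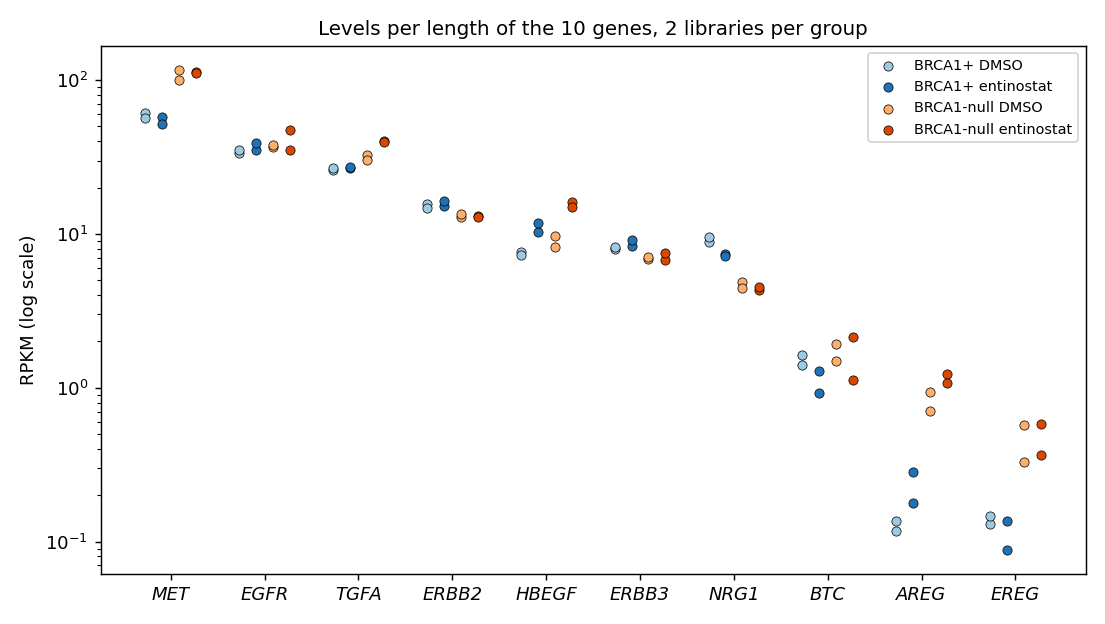
RPKM of the 10 genes (y axis, log scale) in the 8 libraries, coloured by group, with the genes ordered by their mean in BRCA1-null DMSO cells. Levels span from 0.0885 RPKM for EREG in a BRCA1+ entinostat library to 116.6 RPKM for MET in a BRCA1-null DMSO library.

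Of the receptors, MET (hg19, chromosome 7, 116312459 to 116438440) showed the largest difference between the lines. Its CPM values were 408.1 and 379.5 in BRCA1+ DMSO, 385.9 and 344.8 in BRCA1+ cells with entinostat, 778.5 and 674 in BRCA1-null DMSO and 753.2 and 738.7 in BRCA1-null entinostat libraries. All 4 BRCA1-null libraries thus lay above all 4 BRCA1+ libraries, and within a line the libraries of the 2 treatments overlapped. MET was 1.84-fold higher in BRCA1-null cells in DMSO (log2 0.88 ± 0.0799, adjusted p = 3.83e-05) and 2.04-fold higher in entinostat (log2 1.03 ± 0.0802, adjusted p = 1.91e-05). For entinostat against DMSO the log2 value was -0.11 ± 0.0798 in the BRCA1+ line and 0.04 ± 0.0790 in the other, and neither was called.

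EGFR (hg19, chromosome 7, 55086725 to 55275031), the founding member of the receptor family, had 220.2 and 230.2 CPM in BRCA1+ DMSO, 231.2 and 255.5 CPM in BRCA1+ cells with entinostat, 242.1 and 250.1 CPM in BRCA1-null DMSO and 231.2 and 311.9 CPM in BRCA1-null entinostat libraries. The second BRCA1-null entinostat library stood above the other 7. The log2 difference between the lines was 0.13 ± 0.118 in DMSO (adjusted p = 0.416). With entinostat it was 0.16 ± 0.118 (adjusted p = 0.331), so EGFR was not called in either. The entinostat value depended on single libraries, as it was 0.36 (adjusted p = 0.00831) without the first BRCA1-null entinostat library and -0.07 (adjusted p = 0.516) without the second. The antisense gene EGFR-AS1 overlaps EGFR, with 186 of its 2849 exon bases (GENCODE annotation on GRCh37) inside EGFR exons. The library kit does not keep the strand, so reads of these bases cannot be told apart, and EGFR-AS1 had 8.77 to 13.8 CPM beside the 220.2 to 311.9 CPM of EGFR.

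ERBB2 (hg19, chromosome 17, 37844337 to 37884915) had 81.2 to 90.0 CPM in the 4 BRCA1+ libraries and 70.5 to 74.2 CPM in the 4 BRCA1-null libraries, without overlap. The log2 difference was small, -0.20 ± 0.0646 under DMSO (adjusted p = 0.0314) and -0.29 ± 0.0652 under entinostat (adjusted p = 0.00704). ERBB3 (hg19, chromosome 12, 56473809 to 56497291), a receptor with little kinase activity of its own that binds PI3K when phosphorylated, had 49.5 to 56.7 CPM in BRCA1+ and 42.0 to 46.4 CPM in BRCA1-null libraries, again without overlap. It was lower by log2 -0.21 ± 0.0754 under DMSO (adjusted p = 0.0493) and -0.30 ± 0.0760 under entinostat (adjusted p = 0.0114).

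These small receptor differences did not all hold when 1 library was left out. In DMSO the ERBB2 call was lost without the first BRCA1+ (adjusted p = 0.158), the first BRCA1-null (adjusted p = 0.185) or the second BRCA1-null library (adjusted p = 0.0692), and with upper-quartile scaling (adjusted p = 0.0795). The DMSO call of ERBB3 was lost under 12 of 15 alternatives, 6 of them the omission of any of the 4 BRCA1+ or of either BRCA1-null DMSO libraries (adjusted p from 0.0582 to 0.228). In entinostat, ERBB2 was not called without the second BRCA1+ entinostat library (adjusted p = 0.0683), and ERBB3 was not called without that library (adjusted p = 0.103) or without the first BRCA1-null entinostat library (adjusted p = 0.0840). Neither receptor was called for entinostat in either line, with log2 values from -0.03 to 0.12.

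The ligand genes AREG, EREG and BTC lie together on chromosome 4. AREG (amphiregulin) had 12 and 16 counts in BRCA1+ DMSO, 23 and 21 in BRCA1+ cells with entinostat, 109 and 98 in BRCA1-null DMSO and 147 and 114 in BRCA1-null entinostat libraries. Every BRCA1-null library was thus above every BRCA1+ library. It was 6.37-fold higher in BRCA1-null cells in DMSO (log2 2.67 ± 0.342, adjusted p = 0.00029) and 5.21-fold higher in entinostat (log2 2.38 ± 0.292, adjusted p = 0.000231), and both calls held under all 15 alternatives, with adjusted p up to 0.00399 in DMSO and 0.00689 in entinostat. Even so AREG was a rare transcript, at 0.823 ± 0.164 RPKM in BRCA1-null DMSO cells. With entinostat the log2 value was 0.79 ± 0.487 (adjusted p = 0.329) in the BRCA1+ line. In the BRCA1-null line it was 0.50 ± 0.205 (adjusted p = 0.151), and although the libraries did not overlap in either line neither was called.

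The AREG row carries an uncertainty of its own. It runs from 75310815 to 75490485 on hg19, a span that covers AREG (75310853 to 75320722 in the GENCODE annotation on GRCh37) and its copy AREGB (75480629 to 75490486). A transcript of 763 bases of AREG has no difference from one of AREGB over its whole length. How the authors' counting treated reads with 2 positions was not stated, so the level of AREG, and its level per length in particular, is uncertain.

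EREG (epiregulin, 75230860 to 75254477) had 24 and 31 counts in BRCA1+ DMSO, 20 and 19 in BRCA1+ cells with entinostat, 120 and 83 in BRCA1-null DMSO and 127 and 71 in BRCA1-null entinostat libraries. In CPM the lines did not overlap, whereas the treatments overlapped within each line (0.600 and 0.675 against 0.631 and 0.410 CPM in BRCA1+ cells). EREG was 3.19-fold higher in BRCA1-null cells in DMSO (log2 1.67 ± 0.405, adjusted p = 0.00927) and 4.46-fold higher in entinostat (log2 2.16 ± 0.441, adjusted p = 0.00413). The entinostat call was lost without the second BRCA1+ entinostat library (log2 1.82, adjusted p = 0.0586).

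BTC (betacellulin, 75671448 to 75719882) had 86 and 85 counts in BRCA1+ DMSO, 39 and 79 in BRCA1+ cells with entinostat, 116 and 108 in BRCA1-null DMSO and 132 and 62 in BRCA1-null entinostat libraries. In CPM the lines overlapped, and BTC was not called in any comparison, with log2 differences between the lines of 0.17 ± 0.301 in DMSO and 0.53 ± 0.337 in entinostat. The last value was called (log2 0.90, adjusted p = 0.0444) without the second BRCA1-null entinostat library and was -0.02 without the first. At these counts differences of the size of the SE were not detectable.

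Promoters of 8 of the 10 genes were present in the RefSeq promoter table used (GRCh38.p14, with 2 entries each for EGFR and TGFA). The 250 bases before the start are shown for the chromosome 4 ligands, of which AREG and EREG differed between the lines and BTC was not called, for HBEGF, which entinostat raised, and for MET. They lie at chr4:74444886-74445135 (plus strand), chr4:74364895-74365144 (plus), chr4:74794524-74794773 (minus), chr5:140346604-140346853 (minus) and chr7:116671946-116672195 (plus), and each is written 5′ to 3′ in the direction of its gene. Capitals mark matches on either strand to a TATA box (TATAAA), a cAMP response element (CRE, TGACGTCA), an AP-1 site (TGACTCA) or a GC box (GGGCGG).
AREG: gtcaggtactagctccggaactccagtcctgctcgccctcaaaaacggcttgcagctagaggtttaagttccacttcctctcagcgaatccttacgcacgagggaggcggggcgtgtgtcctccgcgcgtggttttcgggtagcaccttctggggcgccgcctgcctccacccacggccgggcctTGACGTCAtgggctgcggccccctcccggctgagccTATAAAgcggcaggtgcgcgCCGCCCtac
EREG: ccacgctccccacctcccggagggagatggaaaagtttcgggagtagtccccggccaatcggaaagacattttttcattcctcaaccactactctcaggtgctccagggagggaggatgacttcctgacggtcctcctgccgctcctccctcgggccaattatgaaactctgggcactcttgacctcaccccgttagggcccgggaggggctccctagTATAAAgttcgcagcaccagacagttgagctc
BTC: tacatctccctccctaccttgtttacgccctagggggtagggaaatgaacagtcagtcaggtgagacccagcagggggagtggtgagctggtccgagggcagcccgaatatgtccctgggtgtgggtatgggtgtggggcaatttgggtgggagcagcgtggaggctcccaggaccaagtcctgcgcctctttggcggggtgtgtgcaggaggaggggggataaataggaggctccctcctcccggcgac
HBEGF: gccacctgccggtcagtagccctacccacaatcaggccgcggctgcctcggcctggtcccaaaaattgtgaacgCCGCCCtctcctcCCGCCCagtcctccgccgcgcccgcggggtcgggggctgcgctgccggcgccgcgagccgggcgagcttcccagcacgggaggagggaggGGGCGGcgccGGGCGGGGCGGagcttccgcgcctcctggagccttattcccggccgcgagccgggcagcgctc
MET: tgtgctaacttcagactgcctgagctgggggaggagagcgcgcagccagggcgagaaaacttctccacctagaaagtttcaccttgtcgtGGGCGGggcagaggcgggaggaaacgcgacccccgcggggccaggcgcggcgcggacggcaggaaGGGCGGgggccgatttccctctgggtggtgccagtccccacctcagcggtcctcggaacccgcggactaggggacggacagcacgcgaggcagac

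A TATA box began 29 bases before the start of AREG and 32 bases before that of EREG, and among all 35116 promoters 10.7% held a TATAAA match. AREG also held a CRE that began 65 bases before the start, a match found in 1.65% of promoters, and a GC box. BTC held none of the 4 motifs. HBEGF held 5 GC boxes, 2 of them overlapping by 1 base, and MET held 2, while 42.6% of promoters had at least 1. No AP-1 match lay in the 5 sequences (4.2% of promoters had one), and the matches are given as a description of these letters only. GC content was 65.2% for AREG, 58% for EREG, 62% for BTC, 76.4% for HBEGF and 68.4% for MET, beside a median of 58% over all promoters.

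HBEGF (hg19, chromosome 5, 139712428 to 139726188) encodes heparin-binding EGF-like growth factor. Its CPM values were 17.9 and 17.2 in BRCA1+ DMSO, 24.3 and 27.6 in BRCA1+ cells with entinostat, 22.9 and 19.4 in BRCA1-null DMSO and 37.8 and 35.2 in BRCA1-null entinostat libraries. Entinostat libraries lay above DMSO libraries in both lines, and the BRCA1-null entinostat group was above all others. Entinostat raised HBEGF 1.49-fold in BRCA1+ cells (log2 0.57 ± 0.107, adjusted p = 0.00972) and 1.73-fold in BRCA1-null cells (log2 0.79 ± 0.100, adjusted p = 0.00297). The call in BRCA1+ cells was lost without the second BRCA1+ DMSO (adjusted p = 0.0660) or the second BRCA1+ entinostat library (adjusted p = 0.0940), and that in BRCA1-null cells held under all 15 alternatives. Between the lines HBEGF was 1.40-fold higher in BRCA1-null cells in entinostat (log2 0.49 ± 0.101, adjusted p = 0.00435), whereas in DMSO the difference of 0.27 ± 0.107 was not called (adjusted p = 0.0706). In DMSO it was called with upper-quartile scaling (adjusted p = 0.0463), with the replicate number as a block (adjusted p = 0.0444) and without the second BRCA1-null DMSO library (adjusted p = 0.0340).

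TGFA (hg19, chromosome 2, 70674412 to 70781147), the ligand with the highest level per length, had 113 and 116.1 CPM in BRCA1+ DMSO, 115.9 and 118.1 in BRCA1+ cells with entinostat, 139.7 and 130.6 in BRCA1-null DMSO and 173.1 and 171.2 in BRCA1-null entinostat libraries. The BRCA1-null libraries lay above the BRCA1+ libraries, and entinostat libraries stood apart from DMSO libraries in BRCA1-null cells but overlapped them in BRCA1+ cells. TGFA was 1.18-fold higher in BRCA1-null cells in DMSO (log2 0.24 ± 0.0559, adjusted p = 0.00791) and 1.47-fold higher in entinostat (log2 0.56 ± 0.0561, adjusted p = 7.56e-05). Entinostat raised it 1.27-fold in BRCA1-null cells (log2 0.35 ± 0.0554, adjusted p = 0.00712), a call that was lost without the second BRCA1-null DMSO library (adjusted p = 0.0583), and gave 0.03 ± 0.0565 in BRCA1+ cells (adjusted p = 0.781).

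NRG1 (neuregulin 1) had 68.8 and 74.9 CPM in BRCA1+ DMSO, 57.9 and 56.3 in BRCA1+ cells with entinostat, 37.7 and 34.9 in BRCA1-null DMSO and 33.5 and 35.2 in BRCA1-null entinostat libraries. Each BRCA1-null library was below each BRCA1+ library. NRG1 was 1.98-fold lower in BRCA1-null cells in DMSO (log2 -0.99 ± 0.0730, adjusted p = 1.39e-05) and 1.66-fold lower in entinostat (log2 -0.73 ± 0.0748, adjusted p = 8.03e-05), and it was the ligand whose direction between the lines was opposite to that of AREG, EREG and TGFA. Entinostat lowered it in BRCA1+ cells by log2 -0.33 ± 0.0719 (adjusted p = 0.0174), which was not called without the second BRCA1+ DMSO (adjusted p = 0.107), the first BRCA1+ entinostat (adjusted p = 0.0769) or the second BRCA1+ entinostat library (adjusted p = 0.116). In BRCA1-null cells the value was -0.08 ± 0.0754 (adjusted p = 0.544).

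**Figure D3:**
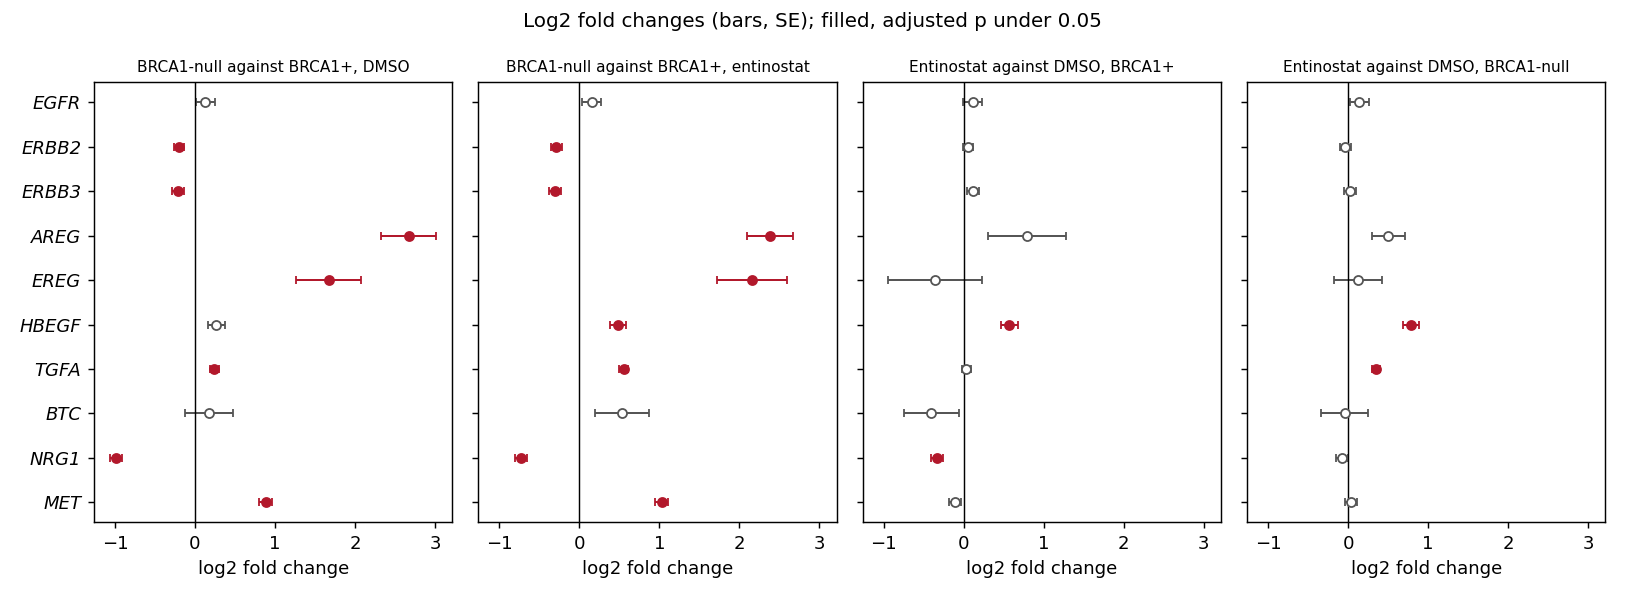
Log2 fold changes of the 10 genes (x axis, with SE as bars) in 4 comparisons, with filled points for an adjusted p under 0.05. Between the lines 7 genes are called in DMSO and 8 in entinostat, and with entinostat 2 are called in each line, HBEGF in both. Over all tested genes 21.1% are higher and 21.0% lower between the lines in DMSO, and 20.5% and 18.9% in entinostat. With entinostat 8.15% rise and 6.00% fall in BRCA1+ cells, and 7.57% and 3.19% in BRCA1-null cells.

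Across the 10 genes, entinostat thus gave 1 call higher (HBEGF) and 1 lower (NRG1) in BRCA1+ cells, where 8.15% of all tested genes rose and 6.00% fell. In the BRCA1-null line 2 genes were called higher (HBEGF and TGFA) and none lower, where 7.57% and 3.19% of all tested genes were called. Without the second BRCA1+ DMSO or the second BRCA1+ entinostat library 0 of the 10 were called in BRCA1+ cells. The difference between the 2 responses was tested as the interaction, and edgeR called 0 of the 10 genes and 0.00% of all tested genes (lowest adjusted p 0.660). At an unadjusted p under 0.05 there were 827 of the 17714 tested genes, of which 2 were among the 10. These were TGFA, with a log2 difference between the responses of 0.32 ± 0.0791 (unadjusted p = 0.00289, adjusted p = 0.967), and NRG1, with 0.25 ± 0.104 (unadjusted p = 0.0375, adjusted p = 0.967). DESeq2's Wald test called 11 genes in the interaction, none of them among the 10. The response of HBEGF differed between the lines by 0.22 ± 0.147.

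To see the difference between the lines beside that of nearby genes, each gene was compared with the 25 tested genes on either side of it. Of the 50 neighbours of HBEGF, 40 were called lower and 1 higher in BRCA1-null cells in DMSO, with a median log2 fold change of -0.62, and HBEGF at 0.27 lay above 46 of them. In entinostat 39 neighbours were lower, with a median of -0.56, and HBEGF lay above 47. In DMSO, as for the genes that follow, AREG and EREG lay above 49 and 45 of their 50 neighbours, whose median was 0.04. For NRG1 the median was 0.05 and 1 of 50 neighbours was below it. Among the genes around MET the median was 0.18, with 12 called higher, and 6 of them exceeded MET. ERBB2 was below 44 of its 50 neighbours, whose median was 0.12, while EGFR, at 0.13, was within its surroundings, with 28 neighbours above it and 22 below. These are counts without a test.

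**Figure D4:**
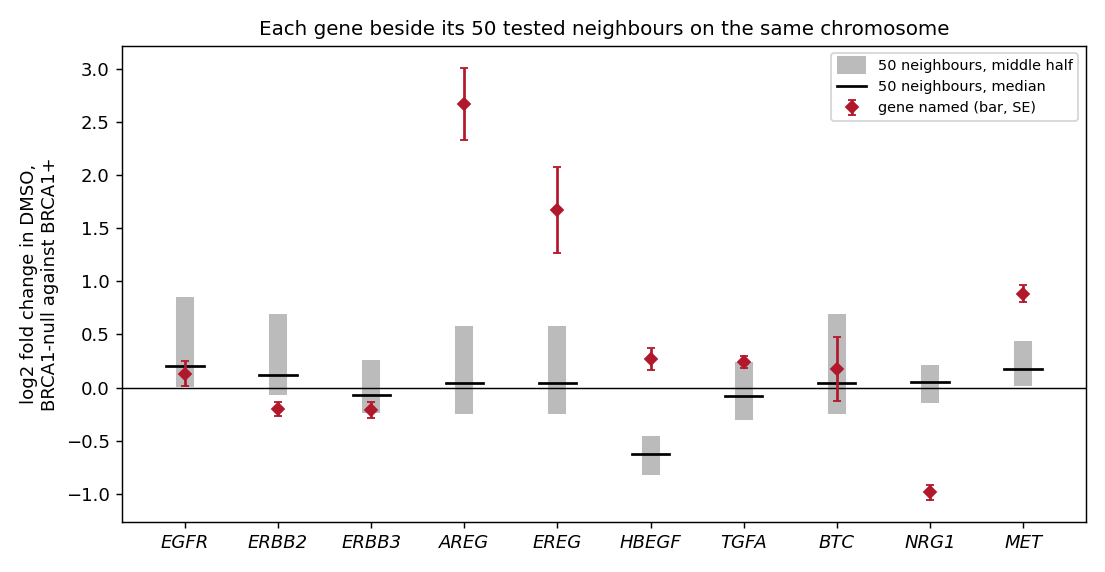
Log2 fold change in DMSO of BRCA1-null against BRCA1+ cells (y axis) for each of the 10 genes (diamonds, with SE) and for the 50 tested genes nearest to it (grey bar, middle 50%; black line, median). The neighbours of HBEGF have a median of -0.62, and HBEGF itself lies at 0.27.

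The genes whose log2 CPM followed each of the 10 most closely over the 8 libraries were described without a test, since the libraries share 2 lines and a gene that separates the lines resembles every other such gene. HHEX (Pearson's r = 0.9989, Spearman's rho = 0.976) and CAV1 (r = 0.9968, rho = 0.976), a neighbour of MET on chromosome 7, were the most like MET. GNAQ (r = 0.9977) and USP1 (r = 0.9972) were the most like NRG1, and AIM1 and SRPK2 (r = 0.9927 for both) the most like AREG. GLIPR1 (r = 0.9865) was closest to TGFA, FCHSD2 (r = 0.9891) to EREG and SLC8B1 (r = 0.9738) to HBEGF. Of 10398 candidate genes, 609 reached r of at least 0.95 with NRG1, 492 with MET and 345 with AREG, but only 17 did with HBEGF and 0 with EGFR.

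Most other ligands and receptors of the families had few counts, with the exception of MST1R. HGF, the ligand of MET, had 0 counts in all 8 libraries, which allows up to 0.0552 to 0.0946 CPM. EPGN had 1 to 9 counts per library and was not tested, and ERBB4, a receptor of NRG1, HBEGF, BTC and EREG, had 15 to 65 counts. Of the 6 tested members of this list, 2 were higher and none lower in BRCA1-null cells in DMSO, where 21.1% and 21.0% of all tested genes were called. EGF itself stood at 1.73 ± 0.415 against 0.686 ± 0.0155 CPM (log2 1.31 ± 0.294, adjusted p = 0.00632). MST1R, the receptor related to MET, was at 70.2 ± 10.4 against 52.5 ± 9.75 CPM (log2 0.42 ± 0.147, adjusted p = 0.0452), a call that was lost without any of the second BRCA1+ DMSO, the first BRCA1-null DMSO or either BRCA1+ entinostat library (adjusted p from 0.0501 to 0.274). In entinostat EGF (log2 1.85 ± 0.291), NRG4 (1.90 ± 0.353) and NRG2 (1.87 ± 0.356) were called higher in BRCA1-null cells, all at 3 CPM or less. NRG2 rose with entinostat in BRCA1-null cells by 1.81 ± 0.328 (adjusted p = 0.0118), from 13 and 23 to 52 and 60 counts, which was not called without the first BRCA1-null DMSO or the second BRCA1-null entinostat library (adjusted p of 0.0504 and 0.0515). NRG2 in entinostat was also not called without the second BRCA1+ entinostat library (adjusted p = 0.0525).

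Of 12 genes that release ligands or handle the receptors, 2 were higher and 5 lower in BRCA1-null cells in DMSO, beside 21.1% and 21.0% of all tested genes, and the list median was -0.20 beside 0.01 over all. ADAM17, the main protease that sheds AREG, TGFA and HBEGF, stood at 89.7 ± 2.28 against 114 ± 2.39 CPM (log2 -0.34 ± 0.0593, adjusted p = 0.0016). RHBDF2, an inactive rhomboid that carries ADAM17 to the cell surface, was higher, at 73.3 ± 2.02 against 47.2 ± 1.36 CPM (log2 0.63 ± 0.0614, adjusted p = 5.65e-05). RHBDF1 was called higher (log2 0.35 ± 0.111), and its call was lost without the second BRCA1+ DMSO or the first BRCA1-null DMSO library (adjusted p of 0.204 and 0.107). ADAM12, another sheddase, was 4.88-fold lower (log2 -2.29 ± 0.317). Without 1 library, 4 to 7 of the 12 were called. In entinostat 1 was higher and 4 lower in BRCA1-null cells (20.5% and 18.9% of all tested genes). With entinostat RHBDF2 was called higher in both lines (log2 0.33 ± 0.0626 and 0.25 ± 0.0596), and HGS, which sorts receptors for degradation, was called lower in both (log2 -0.24 ± 0.0560 and -0.22 ± 0.0555), but leaving out single libraries ended each of these calls (adjusted p up to 0.0744 and 0.158 for RHBDF2 and up to 0.172 and 0.178 for HGS).

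Among 28 adaptors and core kinases, 2 were higher, 8 lower and 18 not called in DMSO, with a median of -0.03. Over all tested genes the shares were 21.1% and 21.0%, so the share of higher calls was under that of all genes and the share of lower calls near it. MAP2K1, which encodes the ERK kinase MEK1, was 1.78-fold higher in BRCA1-null cells (log2 0.83 ± 0.0597, adjusted p = 1.17e-05), and PTPN11, which encodes the phosphatase SHP2, was 1.17-fold higher. GAB1, a docking protein of EGFR and MET, was 2.52-fold lower (log2 -1.34 ± 0.131, adjusted p = 5.99e-05), at 4.49 ± 0.357 against 11.4 ± 0.815 CPM. PIK3R3, a regulatory subunit of PI3K, was 2.62-fold lower (log2 -1.39 ± 0.0870), and MAPK3, which encodes ERK1, was 1.40-fold lower. These 5 calls held under all 15 alternatives. In entinostat 2 were higher and 9 lower in BRCA1-null cells, beside 20.5% and 18.9% of all tested genes. With entinostat 4 rose and 5 fell in BRCA1+ cells (8.15% and 6.00% of all tested genes) and 3 rose and 1 fell in BRCA1-null cells (7.57% and 3.19%). Leaving out 1 library gave 1 to 7 and 2 to 4 calls, with 1 call in BRCA1+ cells without either BRCA1+ entinostat library.

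Of 19 feedback inhibitors of receptor signaling, 2 were higher and 9 lower in BRCA1-null cells in DMSO, beside 21.1% and 21.0% of all tested genes, and the list median was -0.13 beside 0.01 over all. SPRY1, an inhibitor of the RAS-ERK pathway, was lower by the most, with 20.8 ± 1.68 CPM in BRCA1+ and 3.34 ± 0.278 CPM in BRCA1-null cells (6.24-fold lower, log2 -2.64 ± 0.117, adjusted p = 9.29e-07). DUSP1, a MAP kinase phosphatase, was 2.35-fold lower and LRIG1, a transmembrane inhibitor of the ERBB receptors and MET, 1.99-fold lower. ERRFI1 and DUSP6, named after their values were seen, were also lower (log2 -0.45 ± 0.0915 and -0.61 ± 0.0941). Of the list, 8 genes were not called. Among these, DUSP4 (60.7 ± 5.94 against 55.1 ± 2.21 CPM), DUSP5 (71.15 ± 20.7 against 65.1 ± 20.7 CPM) and SPRED1 (35.0 ± 3.69 against 32.1 ± 1.33 CPM) had higher means in BRCA1-null cells. DUSP7, which acts on ERK, was 2.46-fold higher and SPRED3 2.38-fold higher. Between the lines in entinostat 3 were higher and 9 lower, beside 20.5% and 18.9% of all tested genes. With entinostat 1 rose and 2 fell in BRCA1+ cells and 3 rose and none fell in BRCA1-null cells, near the shares over all tested genes in BRCA1+ cells (8.15% and 6.00%) and beside 7.57% and 3.19% in BRCA1-null cells. Without 1 library the calls numbered 0 to 4 and 0 to 2, with 0 in BRCA1+ cells without the second BRCA1+ entinostat library.

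The list of ERK-responsive transcripts was set by name. It holds mainly, but not only, transcripts that are induced or raised when the kinase ERK is active. Of 20 tested, 12 were higher and 2 lower in BRCA1-null cells in DMSO, where 21.1% and 21.0% of all tested genes were called, with a median log2 fold change of 0.49 beside 0.01 over all tested genes. IER3, at 0 counts in all libraries, was not tested. ETV4 (106 ± 0.329 against 99.2 ± 1.55 CPM), ETV5 (131 ± 6.59 against 135 ± 5.14 CPM) and CCND1 (1055 ± 79.7 against 1095 ± 86.6 CPM) differed little between the lines in DMSO. The feedback inhibitors, of which 9 were lower and 2 higher, were listed apart from these transcripts. The 12 higher and 2 lower calls therefore describe this list as it was drawn, and not every transcript that responds to ERK. Whether the counts of either list bear on the activity of ERK was not tested. FOSL1, an AP-1 subunit, was 3.70-fold higher, at 141 ± 2.22 against 38.2 ± 7.94 CPM (log2 1.89 ± 0.145, adjusted p = 1.7e-05). ETV1, an ETS factor, was 4.82-fold higher (log2 2.27 ± 0.154), and EGR3 had 25 to 28 counts in BRCA1-null DMSO libraries and 1 to 2 counts in BRCA1+ DMSO libraries. EGR3 passed the filter on low counts only through its BRCA1-null libraries. Its calls as higher, in DMSO and in entinostat, were therefore favoured by the filter. EGR1, an immediate early factor, was 4.75-fold lower (log2 -2.25 ± 0.364, adjusted p = 0.00112), and ELK1 was 1.25-fold lower. In entinostat 11 were higher and 1 lower in BRCA1-null cells, beside 20.5% and 18.9% of all tested genes. With entinostat 3 rose and 1 fell in each line, beside 8.15% and 6.00% of all tested genes in BRCA1+ and 7.57% and 3.19% in BRCA1-null cells, with ETV1 (log2 1.71 ± 0.169 in the BRCA1+ and 0.96 ± 0.107 in the BRCA1-null line) and PLAUR, the urokinase receptor (0.63 ± 0.0703 and 0.50 ± 0.0652), called in both. The 2 falls were those of CCND1 (log2 -0.45 ± 0.0934, BRCA1+) and of SPHK1 (log2 -0.57 ± 0.151, BRCA1-null). The CCND1 call was lost without the second BRCA1+ DMSO (adjusted p = 0.0933) or the first BRCA1+ entinostat library (adjusted p = 0.112). That of SPHK1 was lost under 7 of 15 alternatives, with log2 -0.32 (adjusted p = 0.231) without the second BRCA1-null DMSO and -0.41 (adjusted p = 0.221) without the first BRCA1-null entinostat library, and with adjusted p from 0.0594 to 0.0692 without any 1 of the BRCA1+ libraries. Leaving out 1 library gave 2 to 4 calls in each line.

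**Figure D5:**
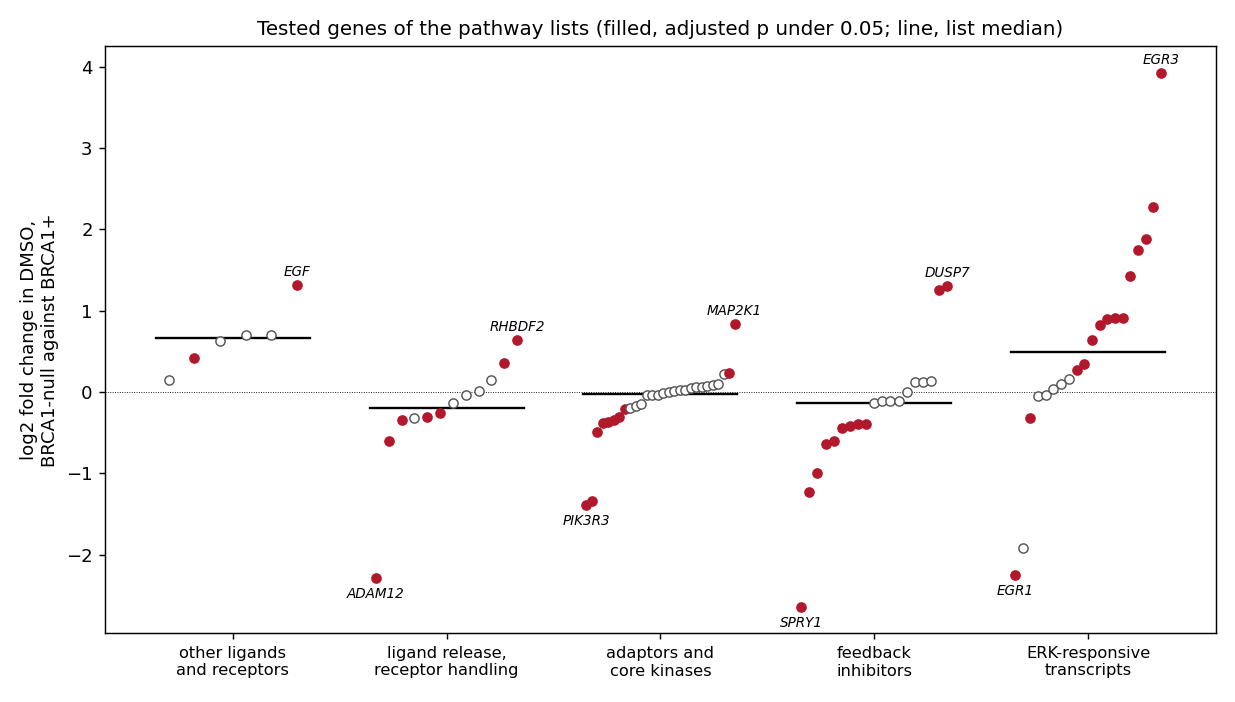
Log2 fold change in DMSO of BRCA1-null against BRCA1+ cells (y axis) for each tested gene of 5 pathway lists, ordered by value within its list, with filled points for an adjusted p under 0.05 and lines at the list medians. In the list of feedback inhibitors 9 genes are called lower and 2 higher, and in that of ERK-responsive transcripts 2 are called lower and 12 higher. Over all tested genes 21.0% are called lower and 21.1% higher.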

How the data were processed

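The authors deposited raw read counts per gene symbol as 1 table. Poly(A) reads had been aligned with TopHat (build hg19), and NGSUtils gave the counts. How the counting treated strand and reads with several positions is not given in the sources used here. Positions and exon lengths came from the same table, and 1 unnamed row with 0 counts was left out.

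The test was that of edgeR (version 4.0.16, R 4.3.3). Low counts were filtered with filterByExpr, TMM factors scaled the library sizes, and all 8 libraries entered 1 quasi-likelihood fit (legacy set to FALSE, 4 residual degrees of freedom). Tests were two-sided, with Benjamini-Hochberg adjustment over all 17714 genes. SE is the absolute log2 fold change over the square root of F. The fit was tested on simulated data. Alternatives were other size factors, no filter, DESeq2 1.42.0, a replicate block, only the groups compared, an added unadjusted p under 0.01, and omission of each library.

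The members and lists were chosen with earlier results of these data known. Besides the 10 genes, BRCA1, CDKN1A and H1F0, up to 3 called genes per direction, list and comparison, and the 2 genes most correlated with each member at a mean log2 CPM of at least 3 (prior count 2) could be named. PAX8, WT1, DCN, LUM, ACTA2, MS4A1, PECAM1, TEK, ERBB4, EPGN, HGF, IER3, EGFR-AS1, ERRFI1, DUSP6, DUSP5, SPRED1, ETV4 and ETV5 were named outside this rule.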

Additional observations from a re-analysis of the deposited data

How the results depend on the processing

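Under the 15 alternatives (14 for the interaction), the number of the 10 genes called between the lines was 5 to 8 in DMSO and 5 to 9 in entinostat. It was 0 to 2 for entinostat in BRCA1+ and 1 to 2 in BRCA1-null cells, and 0 for the interaction. Leaving out 1 library gave 5 to 7, 5 to 9, 0 to 2, 1 to 2 and 0 in the same order. Only leaving out a library reversed a direction, always of a value that was not called. These were EGFR (-0.0746 to 0.357) and BTC (-0.0214 to 0.902) between the lines in entinostat, ERBB2 (-0.0090 to 0.107) for entinostat in BRCA1+ cells, and, for entinostat in BRCA1-null cells, EGFR (-0.0899 to 0.342), ERBB3 (-0.0470 to 0.0969), EREG (-0.263 to 0.522), BTC (-0.598 to 0.325) and MET (-0.0616 to 0.122). The cause was not tested. Upper-quartile scaling moved the median of all genes in DMSO from 0.01 to 0.05 and left 6 of the 10 called.

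The labels do not say what a shared replicate number marks. The correlation of the deviations of same-numbered libraries was 0.0523 to 0.287 over the 6 pairs of groups. It was highest between the 2 treatments within a line, at 0.287 in BRCA1+ and 0.2 in BRCA1-null cells. As it was not over 0.1 in every pair, the numbers were not taken as a pairing. Whether they mark a batch was not tested further. With the number as a replicate block, 8, 8, 2, 2 and 0 of the 10 genes were called in the 5 comparisons, the added one being HBEGF in DMSO (adjusted p = 0.0444), while calls over all genes rose to 4319 from 2505 for entinostat in BRCA1+ and to 3641 from 1906 in BRCA1-null cells. AREG, EREG and BTC had the lowest counts of the 10 genes, 12 to 147, 19 to 127 and 39 to 132 per library.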

Other observations

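H1F0, a linker histone gene used as a check of histone deacetylase inhibition, stood at 40.2 ± 3.54 CPM in BRCA1+ DMSO and 66.1 ± 3.26 CPM in BRCA1+ entinostat cells (SD, n = 2), and at 78.2 ± 9.03 and 90.0 ± 12.3 CPM in BRCA1-null cells. By edgeR it rose with entinostat in BRCA1+ cells (log2 0.72 ± 0.117, adjusted p = 0.00592), whereas in BRCA1-null cells it was not called (log2 0.20 ± 0.111, adjusted p = 0.271) other than with the replicate block (adjusted p = 0.0318), so this check was not met there. The difference between the 2 responses was not called (adjusted p = 0.967). Between the lines in DMSO, 1 of 11 epithelial markers was higher and 3 were lower in BRCA1-null cells. The 3 include WT1, a rare transcript with 1 to 4 counts in BRCA1-null DMSO and 13 to 20 counts in BRCA1+ DMSO libraries. WT1 passed the filter on low counts only through its BRCA1+ libraries, so its call as lower was favoured by the filter. Over all tested genes the shares in this comparison were 21.1% and 21.0%, and the same shares stand beside the other marker lists below. CD68 (log2 1.23 ± 0.135) was higher and CD14 (log2 -2.07 ± 0.353) lower among 3 tested immune markers, and KDR (2.06 ± 0.562) and VWF (1.20 ± 0.224) were higher among 4 endothelial markers. The other 2 endothelial markers were not called. PECAM1 had a lower mean in BRCA1-null than in BRCA1+ cells (2.87 ± 0.318 against 5.42 ± 3.00 CPM), and TEK, with 4 to 10 counts, a higher one. Of 3 tested fibroblast and smooth muscle markers, COL1A1 (log2 1.09 ± 0.163) and COL1A2 (log2 1.33 ± 0.334) were higher. COL1A1 also rose with entinostat in BRCA1+ (1.78 ± 0.157) and BRCA1-null cells (1.14 ± 0.129). Whether these genes bear on the ligand and receptor values was not tested.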
